A study of Mus musculus with 1 sample.

Results

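The genes of the MHC class II antigen presentation pathway were followed across the cell types of 1 single-cell library of mouse bone marrow progenitors. They are the 7 rows of the count matrix with the symbols H2-Aa, H2-Ab1, H2-Eb1, Cd74, Ciita, H2-DMa and H2-DMb1, out of 32285 genes measured, and were chosen by name. MHC class II molecules are pairs of an alpha and a beta chain that carry peptides from internalised proteins to the cell surface, where CD4+ T cells read them. Dendritic cells, B cells and macrophages are the classical cells that do so. H2-Aa and H2-Ab1 encode the alpha and beta chain of the A molecule, and H2-Eb1 the beta chain of the E molecule, whose alpha chain is defective in C57BL/6 mice. Cd74 encodes the invariant chain, which fills the groove of new class II molecules and guides them to the endosome. H2-DMa and H2-DMb1 encode the DM molecule, which exchanges the remnant of the invariant chain for peptide. Ciita encodes the class II transactivator, a coactivator that is recruited to class II promoters by factors already bound there.

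The cells were the lineage-negative, Kit+ fraction of femur and tibia marrow, which contains the blood-forming stem cells and their early descendants. The mice were of the C57BL/6 strain and carried Brd9fl/fl, that is, floxed alleles of the chromatin remodelling subunit Brd9 with no Cre to delete them. They had been given 3 doses of 20 mg/kg polyinosinic-polycytidylic acid (pIpC), an inducer of interferon, and the cells were taken 8 weeks later. By the series text the injections began at 4 weeks of age, whereas the sample's own label counts the same time from a transplant. The labels place these cells in a transplant of CD45.2(+) donor marrow into CD45.1(+) recipients, while the series text and the methods describe primary mice, and the Brd9-deleted library is not analysed here. Under the first reading, donor cells and any cells that the host still had were not told apart. The study's cell filter kept 7645 of 8817 barcodes, with 151852381 unique molecular identifiers (UMIs, each 1 captured transcript) and a median of 18696 UMIs per cell.

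Cells were sorted into gates by marker genes, none of which is a class II gene. A cell passed a gate when at least 2 different markers had a UMI and the markers together had at least 3 UMIs, and a cell that passed more than 1 gate was left out of all of them. The dendritic gate, with the markers Batf3 and Plbd1, held 169 cells (2.21% of the cells and 1.26% of the UMIs). The stem gate held 1059 cells, the monocyte gate 1537, the neutrophil gate 202, the erythroid gate 1334, the plasmacytoid dendritic gate 66 and the B-lineage gate 20. The lymphoid-primed gate (Dntt and Flt3, in cells that pass no other gate) held 169 cells. A further 957 cells passed several gates, of which 155 (16.2%) were doublet calls, against 3 doublet calls in the dendritic gate. Some markers that the dendritic gate did not use were found in it. Cst3 stood at 15116 UMIs per 1000000 UMIs (CPM), Irf8 at 2181, Id2 at 1390, Naaa at 510, Clec9a at 138 and Xcr1 at 134. Cd209a, a gene of the other conventional dendritic branch, stood at 18.3 CPM. Irf8 was also high in plasmacytoid dendritic cells, as given below. Zbtb46, Itgax, Flt3, Ifi205 and Ckb were also on the list of genes checked, and their levels are not given here. In stem cells Naaa stood at 5.92 CPM and Xcr1 at 0.411. Levels below are the summed UMIs of a gate per 1000000 UMIs of that gate. As there was 1 library, nothing was replicated and no test was run, and all intervals are exact 95% intervals for counting error only.

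Class II genes are known to share promoter elements. These are an X box, bound by the RFX complex and CREB, and then a Y box, bound by NF-Y, and the transactivator docks on the proteins bound there. RefSeq start-site windows on GRCm38.p6 were found for 4 of the 7 genes, H2-Aa, H2-Eb1, H2-DMa and H2-DMb1. The letters searched, chosen after these promoters had been read, were an X-like run of GNAAC and, after 2 or 3 bases, TGANG, and a Y box of TGATTGG, on both strands of the 250 bases before the start. The 150 bases before the start of H2-Aa (chr17:34287824-34287973, minus strand) and of H2-Eb1 (chr17:34305717-34305866, plus strand), and 148 bases before the start of H2-Ob (chr17:34238755-34238902, plus strand), a related class II gene, are shown because they hold both runs. They are written 5′ to 3′ with the X-like run and the Y box in capitals.
H2-Aa: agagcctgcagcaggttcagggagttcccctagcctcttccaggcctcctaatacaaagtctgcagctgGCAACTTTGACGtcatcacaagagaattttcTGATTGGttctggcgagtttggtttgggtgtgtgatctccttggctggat
H2-Eb1: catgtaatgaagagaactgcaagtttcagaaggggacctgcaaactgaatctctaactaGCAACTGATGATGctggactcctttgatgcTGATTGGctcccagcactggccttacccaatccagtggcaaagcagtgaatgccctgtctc
H2-Ob: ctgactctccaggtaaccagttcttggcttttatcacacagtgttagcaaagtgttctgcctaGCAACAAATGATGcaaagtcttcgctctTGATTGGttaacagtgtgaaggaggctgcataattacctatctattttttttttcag

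The X-like run began 81 bases before the start of H2-Aa and 91 before that of H2-Eb1, with 19 and 17 bases between it and the Y box. H2-DMb1 had the same arrangement, with GTAACTGATGATG 94 bases before its RefSeq start (chr17:34153097-34153109, plus strand) and the Y box 18 bases further on, although GENCODE M21 begins this gene further upstream, so that both runs lie within its first exon there. Neither window of H2-DMa held either run. The windows of H2-DMb2, H2-Oa and H2-Eb2, which are also related class II genes, held a Y box but no X-like run. Absence of a run says only that these letters are not in these windows. An X-like run followed within 40 bases by a Y box was present in 9 of 32851 RefSeq start-site windows (0.0274%), against 1.49% for the X-like run alone and 7.23% for the Y box alone. The other 5 genes of the 9 besides H2-Aa, H2-Eb1, H2-DMb1 and H2-Ob were 1700048F04Rik, Tmc3, Capsl, BC051142 and Hnrnph2, and among them only Hnrnph2 was above 10 CPM in the dendritic, stem or monocyte gate, at 63.6, 84.4 and 65.3 CPM.

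The classical chains were high in the dendritic gate and far lower in the other gates. The smallest fold over the stem, monocyte, neutrophil, plasmacytoid dendritic and B-lineage gates was that of H2-Ab1 over B-lineage cells, at 42.8 (30.3 to 62.6). H2-Aa (ENSMUSG00000036594, chr17:34282744-34287823 on GRCm38, minus strand) stood at 5237 CPM in dendritic cells (5135 to 5341) and at 96.0 CPM in stem cells (90.6 to 102). It was at 109.8 CPM in T or innate lymphoid cells (74.1 to 157), from 30 UMIs in 34 cells. Further down came 56.4 CPM in lymphoid-primed cells, 43.2 in plasmacytoid dendritic cells, 18.1 in B-lineage cells, 5.89 in monocyte cells, 5.38 in erythroid cells and 2.98 in neutrophil cells. The interval in stem cells overlapped that of T or innate lymphoid cells and lay above that of each of the other gates listed after it, while those of monocyte and erythroid cells overlapped. Levels of H2-Eb1 (ENSMUSG00000060586, chr17:34305867-34316674, plus strand) were lower in most gates, at 2878 CPM in dendritic cells (2803 to 2955), 53.8 in stem cells (49.8 to 58.1), 3.13 in erythroid cells and 2.43 in monocyte cells, with 1 UMI in all neutrophil cells. B-lineage cells, with 8 UMIs of H2-Eb1 and 5 of H2-Aa, were an exception. Reads of H2-Eb1 come from a locus that a gene on the opposite strand overlaps.

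H2-Ab1 (ENSMUSG00000073421, chr17:34257689-34269419, plus strand) had the same peak and a higher base. It stood at 4957 CPM in dendritic cells (4858 to 5057), 116 in B-lineage cells (79.2 to 163), 107 in lymphoid-primed cells (94.7 to 120), 87.8 in stem cells (82.6 to 93.2) and 43.2 in plasmacytoid dendritic cells. Its lowest levels, 22.7 CPM in monocyte cells, 22.9 in erythroid cells, 27.8 in neutrophil cells and 28.7 in megakaryocyte cells, were within counting error of each other and above those of H2-Aa in the same cells, by 2.16-fold (1.40 to 3.39) in megakaryocyte cells and more in the other 3 gates. The highest levels of H2-Ab1 after the dendritic gate, in B-lineage, lymphoid-primed and T or innate lymphoid cells (91.5 CPM), also had overlapping intervals.

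The invariant chain gene Cd74 was the most abundant of the 7 genes in dendritic cells. It stood at 10463 CPM there (10318 to 10609), so that about 1 UMI in 100 of these cells was Cd74. Next came B-lineage cells at 680 CPM (586 to 785), T or innate lymphoid cells at 219.7 (168 to 283), stem cells at 106 (99.99 to 112), plasmacytoid dendritic cells at 94.2 (76.3 to 115) and lymphoid-primed cells at 61.2 (52.2 to 71.3). Monocyte cells stood at 11.3 CPM, erythroid cells at 13.2, megakaryocyte cells at 8.33 and neutrophil cells at 2.73. The intervals of stem and plasmacytoid dendritic cells overlapped. In some gates the level came from few cells. The 10% of cells with the most Cd74 UMIs held 92.0% of them in B-lineage and 83.3% in T or innate lymphoid cells. In plasmacytoid dendritic cells they held 82.3%. The median cell of each of these gates had no Cd74 UMI.

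The DM genes were the least concentrated in the dendritic gate. H2-DMa (ENSMUSG00000037649, chr17:34119541-34139101, plus strand) stood at 715 CPM in dendritic cells (678 to 754), 301 in plasmacytoid dendritic cells (268 to 337) and 226 in lymphoid-primed cells (208 to 245). Stem and monocyte cells had near-equal levels, 151 CPM (144 to 158) and 153 CPM (149 to 157), and the lowest were those of neutrophil cells at 47.2 and erythroid cells at 27.2. H2-DMb1 (ENSMUSG00000079547, chr17:34153072-34160230, plus strand) stood at 572 CPM in dendritic cells (539 to 607), 74.6 in plasmacytoid dendritic cells, 51.9 in monocyte cells (49.6 to 54.4), 41.0 in stem cells (37.5 to 44.8) and 5.38 in erythroid cells. H2-DMb1 has a near-identical neighbour, H2-DMb2, so the division of reads between them is uncertain, and H2-DMa shares its locus with Brd2 on the opposite strand and with CR974462.3 on its own.

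Ciita (ENSMUSG00000022504, chr16:10480059-10528418, plus strand), the transactivator, was low everywhere but in dendritic cells. It stood at 199 CPM there (179 to 220), from 381 UMIs, and at 4.94 CPM in stem cells (3.77 to 6.35), from 60 UMIs. Lymphoid-primed cells had 7 UMIs (2.61 CPM, 1.05 to 5.38), plasmacytoid dendritic cells 2, monocyte cells 8 (0.229 CPM) and erythroid cells 16 (0.414 CPM). No UMI of Ciita was found in neutrophil, megakaryocyte, basophil or mast, or B-lineage cells. A count of 3 UMIs, taken as the floor for a gate, would correspond to 0.578 CPM in basophil or mast cells and 10.9 CPM in the 20 B-lineage cells, so at this depth a level in B-lineage cells as high as that of stem cells could not be detected.

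**Figure D1:**
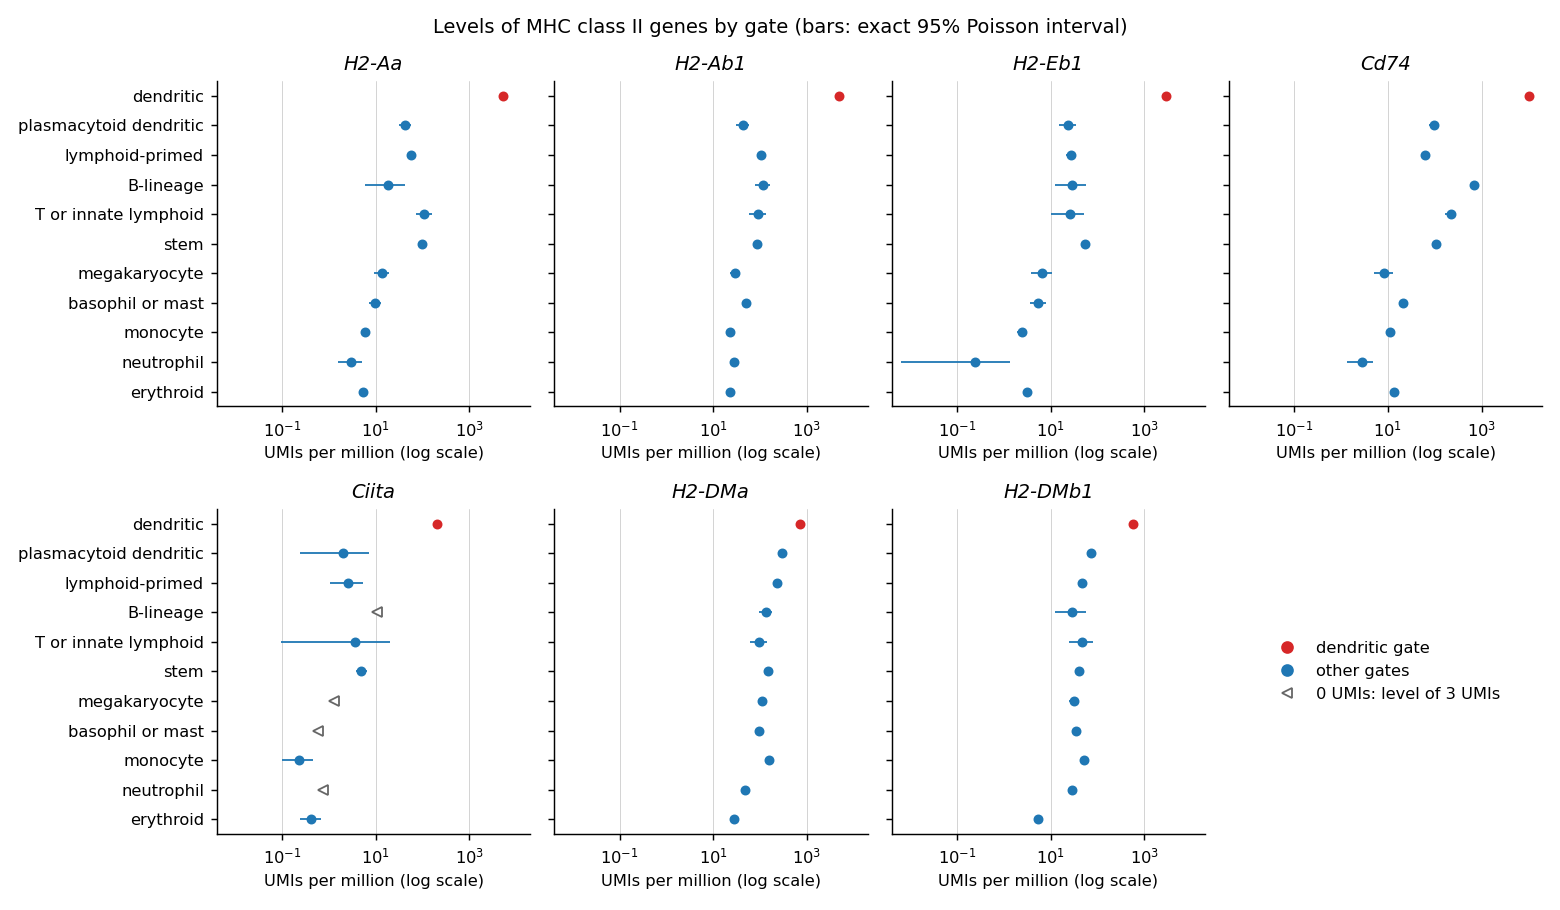
Level of each of the 7 genes in 11 gates, in CPM on a log axis, with exact 95% Poisson intervals. Open triangles mark gates with 0 UMIs, at the level that 3 UMIs would give. The dendritic gate (red) is highest for each gene. Over the other gates, H2-Ab1, H2-DMa and H2-DMb1 span a narrower range than H2-Aa, H2-Eb1 and Cd74.

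Taken as a share of all UMIs kept, the dendritic gate held 66.2% of those of H2-Aa, 55.2% of H2-Ab1, 66.9% of H2-Eb1, 68.1% of Cd74 and 59.9% of Ciita, from 2.21% of the cells. It held 7.71% of the UMIs of H2-DMa and 17.2% of those of H2-DMb1. The monocyte gate, with 20.1% of the cells, held 30.0% of the H2-DMa UMIs and 28.4% of the H2-DMb1 UMIs, but 1.36% of the H2-Aa and 1.34% of the Cd74 UMIs. The stem gate held 9.43% of the Ciita UMIs and 4.36% of those of Cd74.

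Set against stem cells, all 7 genes were 2-fold or more higher in dendritic cells, while 8.49% of the 10941 genes with 50 or more UMIs in both gates together were. Cd74 was 99.0-fold higher (93.6 to 105), H2-Ab1 56.5-fold (53.0 to 60.2), H2-Aa 54.6-fold (51.4 to 58.0), H2-Eb1 53.5-fold (49.3 to 58.1) and Ciita 40.3-fold (30.6 to 53.8). H2-DMb1 was 13.9-fold higher (12.53 to 15.5) and H2-DMa 4.75-fold (4.42 to 5.10). The median fold of the 7 was 53.5, and that of all genes tested 0.764. The intervals of H2-Aa, H2-Ab1 and H2-Eb1 overlapped each other, and that of Cd74 lay above them and those of the DM genes below.

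Against monocyte cells, again all 7 were 2-fold or more higher in dendritic cells, against 12.2% of genes, with a median fold of 869 for the 7 and 0.968 for all genes tested. H2-Eb1 was 1184-fold higher (956 to 1485), Cd74 926-fold (838 to 1026), H2-Aa 889-fold (774 to 1026), Ciita 869-fold (436 to 2026) and H2-Ab1 218-fold (203 to 235). H2-DMb1 was 11-fold and H2-DMa 4.68-fold higher, sizes close to those against stem cells. The folds of Cd74 and H2-Aa depended on which monocyte cells were admitted, and that of H2-Ab1 did less so. Of the 1537 cells 447 had a UMI of Batf3, Naaa, Xcr1, Clec9a, Ckb or Ifi205, and with these left out, an alternative added after seeing the data, Cd74 was 2934-fold and H2-Aa 1951-fold higher, while H2-Ab1 was at 217-fold. With cells of several gates kept in each, the same folds were 219 and 215. All 7 stayed above 2-fold under each of these settings.

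Against neutrophil cells all 7 genes were again 2-fold or more higher in dendritic cells, against 24.6% of genes, with a median of 267 for the 7. H2-Aa was 1758-fold higher (1006 to 3403), from 12 UMIs in neutrophil cells, and Cd74 3831-fold (2141 to 7676), from 11. Ciita, with no neutrophil UMI, was at least 267-fold higher. H2-Ab1 was 178-fold, H2-DMb1 20.2-fold and H2-DMa 15.2-fold higher. H2-Eb1, with 1 UMI in neutrophil cells, had a ratio of 11593 and an interval of 2080 to 457960. Over all alternatives the Cd74 fold ranged from 1600 to 5866 and the lower bound of that of Ciita from 47.2 to 364, and all 7 genes stayed above 2-fold.

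Compared with plasmacytoid dendritic cells, which also express Irf8 (1717 CPM), all 7 were 2-fold or more higher in the dendritic gate, against 8.89% of genes. H2-Aa was 121-fold higher (90.3 to 167), H2-Ab1 115-fold (85.5 to 158), H2-Eb1 122-fold (82.1 to 191) and Cd74 111-fold (90.9 to 137), and these 4 intervals overlapped. H2-DMb1 was 7.68-fold higher and H2-DMa 2.38-fold (2.10 to 2.70). Stricter gates, which need 3 markers where a list is long enough and 5 UMIs, lowered the Cd74 fold to 18.8 and that of H2-Aa to 37.4, and left H2-DMa at 1.59-fold, so that 6 of the 7 were 2-fold or more higher.

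In B-lineage cells, the comparison rested on 20 cells and 276412 UMIs. All 7 genes were 2-fold or more higher in dendritic cells, against 20.6% of genes. The smallest folds were those of H2-DMa, at 5.34 (3.86 to 7.62), and of Cd74, at 15.4 (13.3 to 17.9), and Ciita was at least 18.3-fold higher. Set against stem cells, 1 of the 7 genes was 2-fold or more higher in B-lineage cells, against 4.74% of genes. This was Cd74, at 6.44-fold (5.49 to 7.51), or 3.31-fold with cells of several gates kept in each, while H2-Aa was lower, with 5 UMIs and a ratio of 0.189 (0.0611 to 0.441). The ratios of the other 5 genes had intervals that included 1.

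The Cd74 of B-lineage cells came almost entirely from 2 cells. Of its 188 UMIs, 173 were in the 3 cells with no UMI of the early genes Dntt, Rag1, Vpreb1 or Igll1, and these 3 cells had 136, 37 and 0 UMIs of Cd74. The cell with 136 Cd74 UMIs had no UMI of H2-Aa, H2-Ab1 or H2-Eb1, with 10 UMIs of Cd79a and 5 of Ms4a1, and the cell with 37 had 8 UMIs of H2-Ab1, 3 of H2-Eb1 and 1 of H2-Aa. The 17 cells with early genes stood at 65.5 CPM of Cd74, and the cells without them were 55.8-fold higher (32.9 to 102), or 134-fold with stricter gates and 31.8-fold with cells of several gates kept in each. Cd74 was the 1 member with enough UMIs for this comparison, in which 4.96% of 625 genes were 2-fold or more higher, and the values describe 3 cells.

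**Figure D2:**
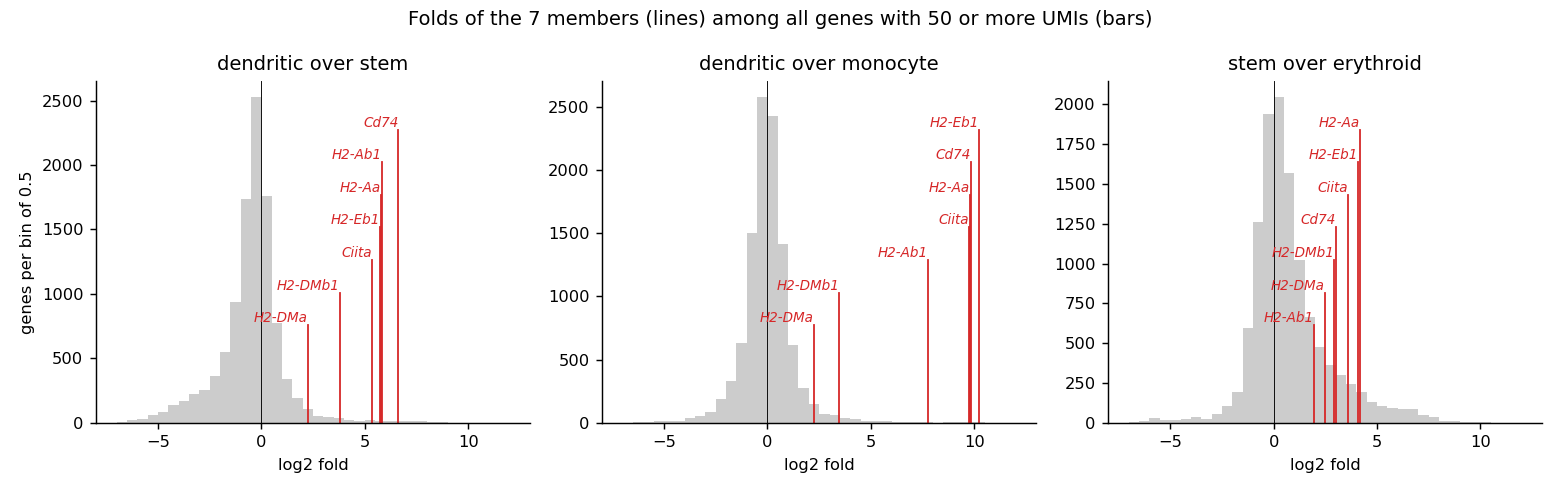
Folds of the 7 genes (red lines) among all genes with 50 or more UMIs in both gates together (grey bars, genes per bin of 0.5), on a log2 axis. In dendritic over stem and dendritic over monocyte cells the 7 genes lie to the right of the bulk of genes, and in stem over erythroid cells they lie within its right-hand slope.

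Stem cells had class II transcripts at a low level, above that of erythroid cells for all 7 genes but not above that of monocyte cells for H2-DMa and H2-DMb1. Stem over erythroid cells, all 7 genes were 2-fold or more higher, but so were 32.8% of the genes tested, so the count alone sets these genes little apart. H2-Aa was 17.9-fold higher (15.4 to 20.8), H2-Eb1 17.2-fold (14.2 to 21.1), Ciita 11.9-fold (6.79 to 22.2), Cd74 8.0-fold (7.22 to 8.89), H2-DMb1 7.64-fold, H2-DMa 5.53-fold and H2-Ab1 3.84-fold. The median was 8.0 for the 7 genes and 1.29 for all genes tested. These sizes moved with the cells admitted: with cells of several gates kept in each, H2-Aa was 4.18-fold and Cd74 2.81-fold higher, and without cells that had a dendritic gene they were 34.4-fold and 14.9-fold higher.

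Stem over neutrophil cells, 6 of the 7 were 2-fold or more higher, against 43% of genes, which is again a high background. H2-Aa was 32.2-fold higher (18.4 to 62.5), Cd74 38.7-fold (21.6 to 77.7), H2-DMa 3.19-fold and H2-Ab1 3.16-fold, and Ciita was at least 6.63-fold higher, a bound that fell to 1.23 with stricter gates and to 1.93 in thinned cells. H2-DMb1 was the member that stayed below 2-fold, at 1.45 (1.18 to 1.79), and its ratio was 0.833 when each cell was thinned to 5000 UMIs.

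Each of the classical chains, Cd74 and Ciita was detected in a minority of stem cells. Among stem cells thinned to 5000 UMIs, 28.6% had a UMI of H2-Aa (25.8 to 31.4), 29.9% of H2-Ab1, 20.0% of H2-Eb1, 23.1% of Cd74 and 2.77% of Ciita (1.86 to 3.95). In erythroid cells, which are not known to present antigen on class II, the same shares were 2.49%, 12%, 1.74%, 3.02% and 0.377%. Unthinned, at median depths of 9606 UMIs per stem cell and 30620 per erythroid cell, the shares with H2-Aa were 40.2% and 6.60%. In dendritic cells (median 11326 UMIs) the thinned shares were 98.2% for H2-Aa, 95.8% for H2-Ab1, 93.5% for H2-Eb1, 97.0% for Cd74 and 57.7% for Ciita. In monocyte cells (median 22117 UMIs) the shares of H2-Aa (1.82%), H2-Ab1 (9.31%), H2-Eb1 (1.24%), Cd74 (2.73%) and Ciita (0.130%) were below those of erythroid cells, so none of them is read as expression above the background that erythroid cells set. The part of free RNA in either gate was not tested. H2-DMa was found in 95.8% of thinned dendritic cells, 69.1% of lymphoid-primed cells, 53.3% of monocyte cells, 51.2% of stem cells and 15.6% of erythroid cells.

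The 10% of stem cells with the most Cd74 UMIs held 69.3% of the stem Cd74 UMIs, and the corresponding share for H2-Aa was 55.3%. Leaving out the 121 stem cells with a UMI of Batf3, Naaa, Xcr1, Clec9a, Ckb or Ifi205 changed the stem levels little, to 90.7 CPM of H2-Aa (85.1 to 96.6), 98.4 CPM of Cd74 (92.5 to 105) and 4.39 CPM of Ciita (3.22 to 5.83). The stem cell with the most Cd74, at 8149 CPM, was among those 121 and was a doublet call. The highest without a dendritic gene stood at 3476 CPM.

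Within the stem gate, the levels differed with Vwf, a gene of platelet-biased stem cells. The 591 stem cells without a Vwf UMI stood at 121 CPM of H2-Aa and 136 CPM of Cd74, and the 468 with one at 66.8 and 71.2 CPM. The ratio was 1.82 for H2-Aa (1.61 to 2.06), 1.91 for Cd74 (1.69 to 2.15), 1.75 for H2-Ab1 (1.54 to 1.99) and 1.36 for H2-Eb1 (1.16 to 1.60). The median ratio of 10658 genes was 0.990, with quartiles of 0.881 and 1.10. For Ciita and H2-DMb1 the intervals included 1. The stem cell with the most Cd74, the doublet call described above, was in the group without Vwf. The 10% of cells with the most Cd74 UMIs held 68.7% of the Cd74 UMIs of the group without Vwf. In the group with Vwf they held 70.5%. Median depth was 9117 UMIs in cells without Vwf and 10350 in cells with it, and whether depth has a part in having a Vwf UMI was not tested.

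**Figure D3:**
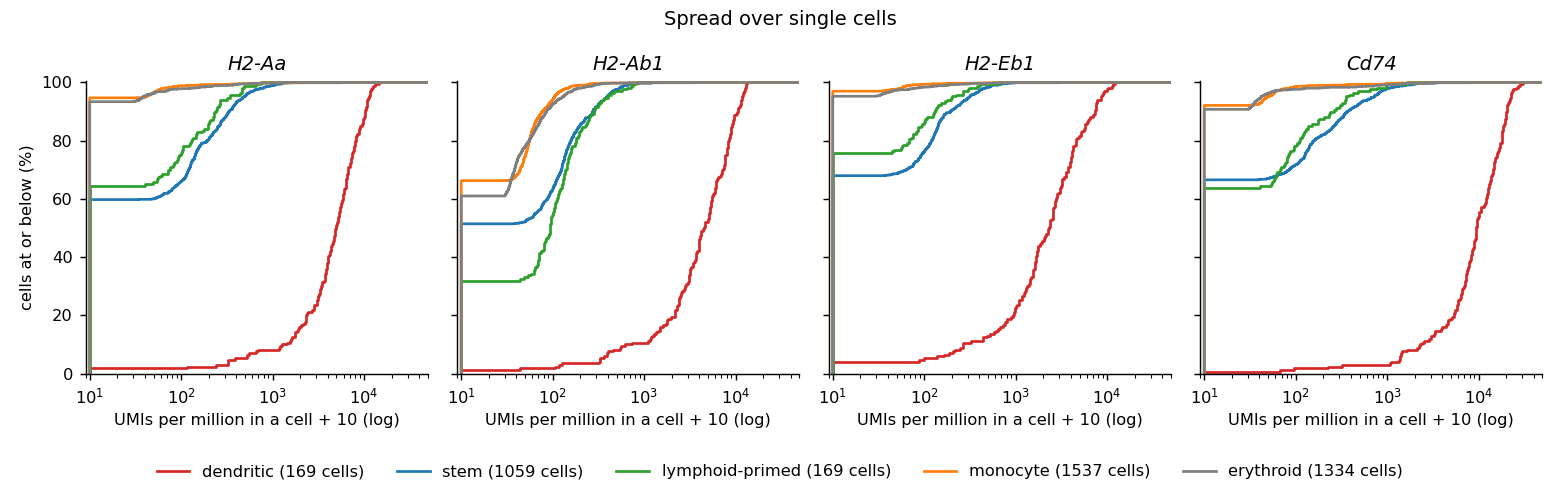
Share of cells at or below each level, for H2-Aa, H2-Ab1, H2-Eb1 and Cd74, as CPM in single cells plus 10 on a log axis. The starting height of each curve is the share of cells with no UMI, which for H2-Aa is near 60% in stem cells and over 90% in monocyte and erythroid cells, while most dendritic cells lie above 1000.

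The 4 genes H2-Aa, H2-Ab1, H2-Eb1 and Cd74, which led in dendritic cells, were also counted together in single cells. All of them had a UMI in 155 of 168 thinned dendritic cells (92.3%, 87.1 to 95.8), in 54 of 1047 stem cells (5.16%, 3.90 to 6.68) and in 4 of 168 lymphoid-primed cells (2.38%). The shares were 0.603% in erythroid and 0.326% in monocyte cells. None of the 4 had a UMI in 46.5% of stem cells, 84.9% of erythroid cells and 87.3% of monocyte cells. All 7 genes had a UMI in 83 dendritic cells (49.4%) and in 0 of 1047 stem cells, for which the exact upper limit is 0.352%.

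**Figure D4:**
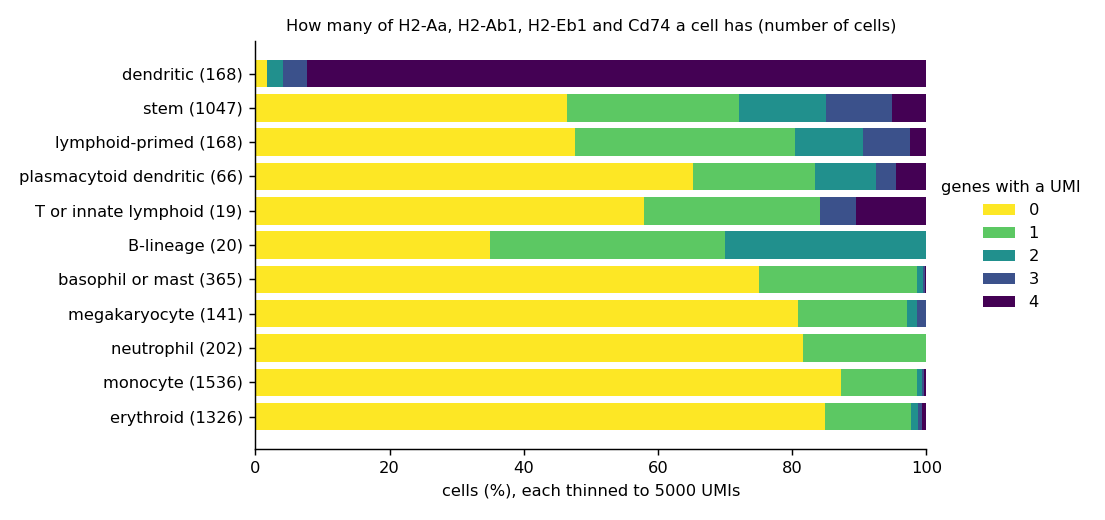
Share of cells in each gate with a UMI of 0 to 4 of the genes H2-Aa, H2-Ab1, H2-Eb1 and Cd74, in cells thinned to 5000 UMIs each. The dendritic gate has 92.3% of cells with all 4 and the stem gate 5.16%, while most monocyte, neutrophil and erythroid cells have none.

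The proportions of the genes to each other were compared within gates, as ratios of UMIs. H2-Eb1 per H2-Aa was 0.550 in dendritic cells (0.532 to 0.568) and 0.560 in stem cells (0.509 to 0.617). It was 0.582 in erythroid cells and 0.546 in plasmacytoid dendritic cells, and all of these intervals overlapped. Lower ratios were those of monocyte cells at 0.413 (0.317 to 0.534) and T or innate lymphoid cells at 0.233 (0.0865 to 0.542). That of neutrophil cells was 0.0833, from 1 UMI of H2-Eb1. Cd74 per H2-Aa was 2.0 in dendritic cells (1.95 to 2.05) but 1.10 in stem cells (1.02 to 1.19) and 1.09 in lymphoid-primed cells (0.865 to 1.36), and the last 2 intervals lay below the first. In erythroid cells Cd74 per H2-Aa was 2.46 (2.09 to 2.90) and in monocyte cells 1.92 (1.62 to 2.28).

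H2-Ab1 per H2-Aa was near 1 in dendritic cells (0.946, 0.920 to 0.973) and stem cells (0.914, 0.841 to 0.994). It was 1.89 in lymphoid-primed cells (1.55 to 2.32), 3.86 in monocyte cells (3.31 to 4.52), 4.26 in erythroid cells (3.65 to 4.97), 5.20 in basophil or mast cells (3.84 to 7.16) and 9.33 in neutrophil cells (5.14 to 18.6). All of the latter intervals lay above that of dendritic cells. Ciita per H2-Aa was 0.0379 in dendritic cells (0.0342 to 0.0420) and 0.0514 in stem cells (0.0390 to 0.0667), with overlapping intervals. H2-DMa per H2-Aa was 0.137 in dendritic cells, 1.57 in stem cells, 4.01 in lymphoid-primed cells and 25.9 in monocyte cells.

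**Figure D5:**
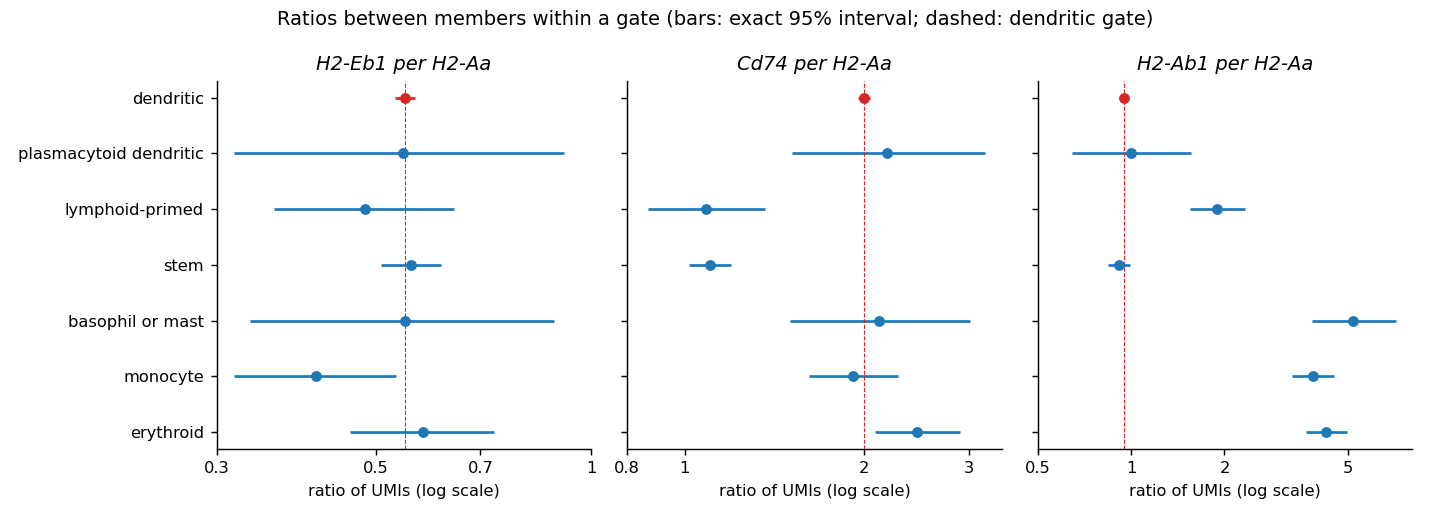
Ratio of UMIs of H2-Eb1, Cd74 and H2-Ab1 to those of H2-Aa in 7 gates, on log axes, with exact 95% intervals and the dendritic value as a dashed line. Cd74 per H2-Aa is lower in stem and lymphoid-primed cells (1.10 and 1.09) than in dendritic cells (2.0), and H2-Ab1 per H2-Aa is 3.86 to 5.20 in monocyte, erythroid and basophil or mast cells.

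Levels also varied among the dendritic cells. Cd74 ranged from 0 to 30300 CPM in single cells, with a median of 9474, and 5 of the 169 cells were below 1000 CPM. H2-Aa ranged from 0 to 14522 CPM with a median of 4887, H2-Ab1 from 0 to 13264 with a median of 4557, and H2-Eb1 from 0 to 12281 with a median of 2295. Ciita had a median of 144 CPM, H2-DMa of 668 and H2-DMb1 of 569. Across 168 thinned cells, which share 1 library and 1 depth, the 4 genes with the highest levels there varied together, with Spearman correlations of 0.844 to 0.912 between pairs. Cd74 correlated with Naaa at 0.563 and with Xcr1 at 0.590, with Irf8 at 0.0708 and with Kit at 0.0811. Correlations of Ciita with the 4 genes were 0.313 to 0.355. Ciita had 171 UMIs in these thinned cells and Cd74 9100, and the part of low counts in this difference was not tested.

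Cells with Xcr1, the chemokine receptor of mature type 1 conventional dendritic cells, were the higher ones. The 43 dendritic cells with an Xcr1 UMI stood at 17951 CPM of Cd74 and the 126 without at 7867, a ratio of 2.28 (2.22 to 2.35). The ratio was 3.50 for H2-Eb1 (3.32 to 3.70), 2.44 for H2-Ab1, 2.35 for Ciita (1.91 to 2.89), 2.24 for H2-Aa, 1.57 for H2-DMa and 1.30 for H2-DMb1, against a median of 0.844 over 4812 genes. H2-Eb1 thus differed more than H2-Aa and H2-Ab1, with intervals that do not overlap. Kit, the receptor on which the cells were sorted, went with smaller differences. The ratio of Cd74 in the 98 cells with a Kit UMI to the 71 without was 0.999 (0.971 to 1.03), that of H2-Eb1 was 1.11 (1.05 to 1.18) and that of H2-DMb1 0.861 (0.763 to 0.973), while the intervals of the other 4 genes included 1.

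The edge of the dendritic gate held cells with lower levels. The 9 cells just inside it, with 3 marker UMIs, stood at 2248 CPM of Cd74, and the 4 cells just outside at 1134. A further 41 cells passed the dendritic and another gate, 18 of them the monocyte and 18 the erythroid gate, and stood at 4066 CPM of Cd74. Of these 41 cells, 17 were doublet calls, and the part of doublets in their level was not tested.

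The pathway around the members was described by a list of 20 further genes, of which 19 were in the matrix, and H2-Ea-ps is not analysed here. In dendritic over stem cells 16 of them had enough UMIs, and 8 were 2-fold or more higher and 2 lower, against 8.49% and 29.3% of all genes tested. Over monocyte cells the counts were 8 higher and 1 lower of 16, against 12.2% and 14.6% of all genes. Over neutrophil cells they were 9 higher and 1 lower of 13, against 24.6% and 10.8%. Ctss, the protease that trims the invariant chain, stood at 346 CPM in dendritic and 5.84 in stem cells, a ratio of 59.2 (46.3 to 76.8). Ifi30, a lysosomal thiol reductase, stood at 596 and 18.1 CPM, a ratio of 33.0 (28.5 to 38.2). The ubiquitin ligase gene March1, whose product removes class II from the surface, had 224 UMIs in dendritic cells (117 CPM) and 2 in stem cells, a ratio of 710 with an interval of 194 to 5901. Cd86, a costimulatory ligand, was 27.8-fold higher and the protease gene Lgmn 8.63-fold.

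H2-Oa and H2-Ob, which encode the DO molecule that restrains DM, were 7.2-fold (5.83 to 8.90) and 6.16-fold (4.85 to 7.84) higher in dendritic than in stem cells. Their peaks differed: H2-Oa stood at 100.7 CPM in dendritic and 68.2 in basophil or mast cells, and H2-Ob was highest in B-lineage cells at 134 CPM, with 72.5 in dendritic, 63.1 in lymphoid-primed and 22.7 in basophil or mast cells. Ctsl, a protease that trims the invariant chain in the thymus, was lower in dendritic than in stem cells, at 6.26 against 54.7 CPM. H2-DMb2 stood at 29.2 CPM in dendritic and 0.658 in stem cells.

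The genes of the proteins that bind the X and Y boxes were detected in dendritic, stem and monocyte cells, at levels that differed for some of them. Of 7 such genes, Rfxank was 2-fold lower in dendritic than in stem cells, at 4.69 against 9.95 CPM from 9 UMIs, and none was 2-fold higher. Rfx5 stood at 14.1 CPM in dendritic and 21.8 in stem cells, Rfxap at 38.1 and 36.0, Nfya at 72.5 and 59.8, Nfyb at 67.3 and 55.3, Nfyc at 32.9 and 21.3, and Creb1 at 58.4 and 63.2. In monocyte cells the same 6 genes stood at 7.92, 35.2, 40.5, 48.9, 23.1 and 39.5 CPM. Ciita had a ratio of 40.3 between dendritic and stem cells.

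Across the 11 gates with 20 or more cells, 5 genes outside the list had a profile most like the mean of the 7, on log2(CPM + 10) and among 5018 genes with 50 CPM or more in a gate. They were Phf11b (Pearson 0.971), Slfn5 (0.947), Ppt1 (0.946), Rala (0.945) and Tbc1d9 (0.944). Phf11b stood at 94.4 CPM in dendritic, 6.87 in plasmacytoid dendritic and 4.85 in stem cells, and Ppt1, a lysosomal thioesterase gene, at 326, 29.4 and 37.0 CPM. The single dendritic gate dominates such a likeness, and the 11 gates share 1 library.

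The gene with the highest level, Cd74 (ENSMUSG00000024610), lies on chromosome 18 at 60803848 to 60812652 on the plus strand of GRCm38 and overlaps a microRNA gene, Mir5107, that is not a row of the matrix.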

How the data were processed

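The authors made the deposited UMI counts from 1 Chromium 3' v3.1 library in Cell Ranger 6.0.2 against an mm10 transcriptome, as whole-number counts per gene and barcode, before their filter on cells. The labels describe an RNA kit for bulk samples, while the matrix header and the study's methods describe the 10x library used here. The number of mice behind the library is not given in the sources used here. Counting UMIs at the 3' end does not scale with transcript length, so levels are compared as captured molecules.

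Barcodes were kept by the study's limits, namely UMIs between 1000 and 50000, genes between 1000 and 6500 and less than 7% mitochondrial UMIs. Kept cells had 1592 to 49991 UMIs. Scrublet (scanpy 1.11.5, expected rate 6%) called 268 cells (3.51%) doublets. They were kept, and removed as an alternative. The members, marker lists, pathway list and comparisons were chosen with earlier results of these data known. The genes named are the 7 members, the pathway list, a check list of dendritic genes and the 5 genes with the most similar profile. The few other genes named, such as those of the promoters with both runs and of single cells, were chosen after their values were seen.

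Levels are UMIs of a gate per 1000000 of its UMIs (CPM), and their intervals are exact Poisson ones. Folds divide the level of a gate by that of another and have conditional binomial intervals, and shares have Clopper-Pearson intervals, all at 95% with scipy 1.17.1. A gene was compared where both gates together had 50 UMIs or more. With 1 library no test was possible, so called means a fold of 2 or more. Against 0 UMIs, a fold was computed with a floor of 3 counts per gate. For shares of cells, each cell was thinned without replacement to 5000 UMIs, which left out 99 shallower cells. The script was tested on simulated data. Gene positions were taken from GENCODE M21 (GRCm38), and promoter windows from RefSeq (GRCm38.p6).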

Additional observations from a re-analysis of the deposited data

Results flagged for a closer look

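Cd74 was also counted in the 1172 barcodes that fail the study's cell filter and enter no comparison above. It stood at 94.4 CPM there (89.6 to 99.3, from 1472 UMIs), while 3 UMIs would give 0.192 CPM. Of these barcodes 9 passed the dendritic gate, 6 of which had failed an upper limit on UMIs or genes and 3 the limit on the mitochondrial share. The 9 barcodes held 70.1% of the Cd74 UMIs of the failing barcodes, at 2806 CPM (2638 to 2983), against 10463 CPM in the dendritic cells kept.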

How the results depend on the processing

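Each count of members at 2-fold or more and each member's fold was recomputed with stricter gates, with cells of several gates kept in each, without doublet calls, with a stricter cell filter, with no cell filter, with thinned cells, with means of per-cell CPM, without a minimum of UMIs, without mitochondrial, ribosomal and haemoglobin UMIs in the totals and, added after seeing the data, without cells that had a dendritic gene in other gates. Of 90 such counts, 89 stayed within 1.5 times the reported one. The exception was the B-lineage comparison by early genes, where without a minimum of UMIs 2 members were called. Of 620 folds of single members, 143 moved beyond their counting interval, 35 of them with stricter gates, 29 with thinned cells and 27 with cells of several gates kept in each. Only H2-DMb1 in stem over neutrophil cells changed direction, to 0.833 with thinned cells, and the cause was not tested. The folds over neutrophil and B-lineage cells rest on few UMIs, which limits their precision. No paired analysis was possible because there is 1 library. Differences between mice, sorts or libraries cannot be given.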
